A study of Mus musculus with 12 samples.

Results

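Osteoclasts are the multinucleated cells that resorb bone, and the 10 genes described here serve their differentiation and their resorbing work. The set names genes by their function and applies no threshold to their values, but it was chosen with earlier results of these data known. It holds the enzymes Acp5 and Ctsk and the receptors and surface proteins Tnfrsf11a, Oscar, Calcr, Itgb3 and Siglec15. The others are the fusion proteins Dcstamp and Ocstamp and the transcription factor Nfatc1. All 10 were found among the 23715 genes of the files, and all 10 were among the 13059 genes that reached 1 FPKM in at least 3 of the 12 mice and were tested. Levels are in FPKM, a fragment count divided by transcript length and library size, and were added up over the RefSeq transcripts of a gene.

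The data were RNA-seq of calvaria, the skull roof, from 12 C57BL/6 mice, each sequenced alone, in 4 groups of 3. One pair of groups was control and Med23 MSC-/- littermates (the Med23 set). The mutants had floxed Med23 alleles (exons 5 to 7) and Prx1-Cre, a driver active in limb and part of the cranial mesenchyme. The other pair was WT and Runx2+/- mice (the Runx2 set), in which 1 germline allele of Runx2, the master factor of osteoblasts, is missing in every cell. The labels call the tissue calvaria and the age newborn and give the genotype of both control groups as WT. The methods name parietal bone at postnatal day 2, and elsewhere in the study the controls of the Med23 cross are Med23 fl/fl. Osteoclasts arise from blood-forming precursors, in which this Cre driver is not known to act. Neither mutation showed in the summed level of its gene. Med23 was at 5.32 ± 0.732 FPKM (SD, n = 3) in control and 5.30 ± 0.425 in Med23 MSC-/- mice, and Runx2 at 31.6 ± 5.39 in WT and 33.5 ± 2.76 in Runx2+/- mice (adjusted p = 0.997 and 0.796, limma). The sums cover whole transcripts, not the deleted part alone. All directions given here therefore rest on the labels.

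Osteoclasts form when macrophage precursors receive CSF1 and RANKL, both made by osteoblasts and their stroma. RANKL binds RANK, the product of Tnfrsf11a, and signals on through TRAF6, NF-kB and AP-1, with co-stimulation from immunoreceptors such as OSCAR, to NFATc1, the factor that switches on the fusion and resorption genes. The mature cell attaches through integrin beta 3, acidifies the space beneath it and secretes cathepsin K, which cuts collagen. In the newborn skull such cells reshape bone as it grows.

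The depth was roughly 7840000 to 11600000 fragments per mouse, estimated from the smallest values. By the same estimate Calcr rested on about 14 to 120 fragments in a mouse, Siglec15 on 70 to 160 and Tnfrsf11a on 130 to 440, whereas Ctsk had 25000 to 76000. Xist, the RNA of the inactive X chromosome, was above 1 FPKM in control mice 2 and 3 and in WT mouse 1 and in no mutant mouse, so the sexes were unevenly spread. The labels do not give sex, batch or sequencing date, and no value within a batch could be computed.

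The transcripts were at very different levels. Ctsk had a mean of 2861 FPKM over the 12 mice, rank 70 of all 23715 genes, and Acp5, which encodes the tartrate-resistant acid phosphatase of osteoclasts, had 1584 FPKM, rank 112. In control mice the ranges of Ctsk (2385 to 4380 FPKM) and Acp5 (1482 to 2663) overlapped, and both lay far above the rest. Dcstamp followed at a mean of 36.7 FPKM, Itgb3 at 36.2, Oscar at 30.4, Nfatc1 at 26.8 and Ocstamp at 20.9, and each of these overlapped its neighbour in this order. Siglec15 (9.52 FPKM) and Tnfrsf11a (5.86) overlapped each other and lay below Ocstamp. Calcr, the calcitonin receptor, was lowest at 1.89 FPKM, and no control mouse had as much Calcr as any had of Tnfrsf11a. WT mice gave the same order except that Itgb3 (39.5 FPKM) lay above Dcstamp (33.5) with no overlap. All 10 transcripts were detected in every mouse. In Runx2+/- mice Dcstamp (16.5 FPKM) came after Itgb3, Nfatc1 and Oscar, with overlap between neighbours from Itgb3 down to Ocstamp.

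Most of these genes are represented by 1 transcript, and 3 of them by more. Of the 3 transcripts of Acp5, the one with the most downstream start held 96.3 to 98.6% of the Acp5 FPKM in each mouse. One of the 2 Calcr transcripts held 71.1 to 99.9%. Nfatc1 was split over 6 transcripts, and the one most abundant on average held between 11.0 and 54.0% from mouse to mouse, so that only the sum is used below.

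The 250 bases before the start of transcription were examined for genes with an entry in the RefSeq promoter table (GRCm38.p6), since the genes varied together between mice. Windows for Acp5, Ctsk, Calcr, Oscar and Tnfrsf11a were searched on both strands for the core letters bound by NFAT (GGAAA), RUNX (TGTGGT), AP-1 (TGANTCA) and the E-box of MITF (CATGTG). The RUNX and E-box letters can share TGTG. Printed 5′ to 3′ on the strand of the gene are Acp5 at the start used by its main transcript (chr9:22130599-22130848, minus strand), Ctsk (chr3:95498960-95499209, plus strand), Oscar (chr7:3616158-3616407, minus strand) and the main start of Calcr (chr6:3763624-3763873, minus strand). They are the most abundant genes with a window, the immunoreceptor with the most NFAT letters and the gene with the largest fall in Runx2+/- mice. Capitals mark NFAT and E-box letters, on either strand.
Acp5: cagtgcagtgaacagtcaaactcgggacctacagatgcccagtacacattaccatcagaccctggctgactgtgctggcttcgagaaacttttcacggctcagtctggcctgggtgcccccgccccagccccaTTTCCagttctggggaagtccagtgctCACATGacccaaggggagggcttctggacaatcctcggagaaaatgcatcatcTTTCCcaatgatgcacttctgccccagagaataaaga
Ctsk: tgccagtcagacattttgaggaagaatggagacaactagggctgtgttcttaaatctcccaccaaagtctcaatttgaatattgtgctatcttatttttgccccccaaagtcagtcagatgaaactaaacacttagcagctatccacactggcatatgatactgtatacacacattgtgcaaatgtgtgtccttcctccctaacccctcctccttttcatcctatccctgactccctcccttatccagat
Oscar: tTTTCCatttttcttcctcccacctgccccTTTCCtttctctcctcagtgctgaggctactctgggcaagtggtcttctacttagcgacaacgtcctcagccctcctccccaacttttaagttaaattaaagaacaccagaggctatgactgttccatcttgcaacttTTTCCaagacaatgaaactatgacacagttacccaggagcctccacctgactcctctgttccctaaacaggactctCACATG
Calcr: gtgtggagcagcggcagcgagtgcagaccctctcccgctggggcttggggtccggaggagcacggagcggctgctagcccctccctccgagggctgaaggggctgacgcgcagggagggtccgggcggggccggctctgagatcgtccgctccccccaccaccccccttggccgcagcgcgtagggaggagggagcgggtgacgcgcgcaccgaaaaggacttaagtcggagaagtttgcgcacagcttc

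The NFAT letters occurred at 3 places before Oscar, 249, 220 and 82 bases ahead of the start, and at 2 before the main Acp5 start, 117 and 37 bases ahead. An E-box lay 90 bases ahead of Acp5 and 6 bases ahead of Oscar. The windows of Ctsk and Tnfrsf11a and the main start of Calcr held none of these letters, while the other Calcr start had the NFAT letters once. In all, 5 of the 8 windows of these genes had NFAT letters and 2 of 8 an E-box, against 55.6% and 12.3% of all 32851 promoter windows of this length. RUNX letters, found in 4614 of all windows, and AP-1 letters, found in 6.75%, were in none of the 8 windows of these genes. Such matches describe letters and do not show binding.

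Whether loss of Med23 in the mesenchyme, or of 1 Runx2 allele, goes with another level of the osteoclast transcripts was asked in each set against its own littermates. In Runx2+/- mice all 10 genes were lower on average than in WT mice (43.9% of all tested genes were). The median was -0.64 on the log2(FPKM + 1) scale. Dcstamp and Calcr passed the test over all genes as lower, where 1.49% of all genes did. Neither passed without WT mouse 1, without WT mouse 3, with no filter on low values or without moderation across genes. In Med23 MSC-/- mice 9 of 10 were lower on average (38.7% of all genes were), with a median of -0.42. The groups overlapped for each of the 10, where 7.68% of all genes had mutants below all controls and 19.6% above. None of the 10 passed (1.57% of all genes did). Fewer osteoclasts and less RNA per osteoclast cannot be told apart in whole tissue. Adding 1 before taking logs makes the fold change of a low gene such as Calcr too small.

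**Figure D1:**
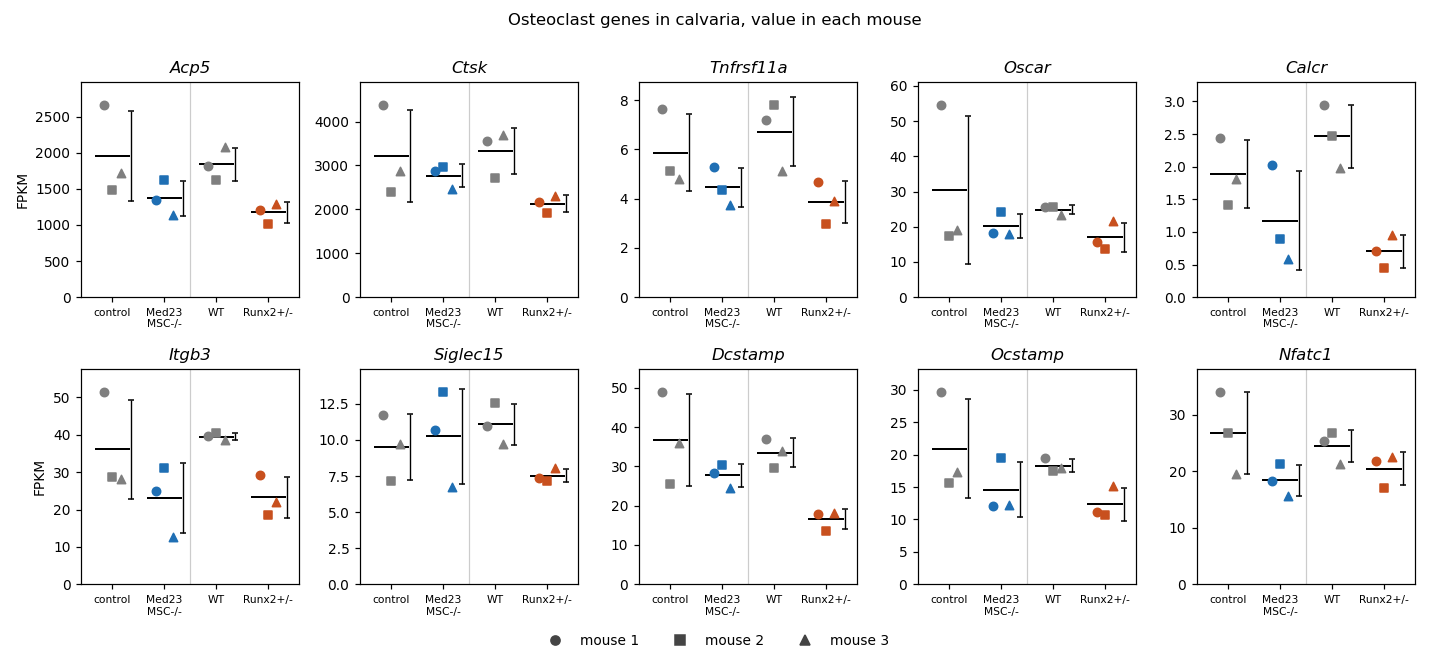
FPKM of each of the 10 osteoclast genes (vertical axes from 0) in each of the 12 mice; symbols give the mouse number within a group, horizontal lines the mean and error bars the SD of 3 mice. Control mouse 1 sits at the top of its set in 9 of 10 panels. The Runx2+/- mice sit below all WT mice in 9 of 10, as for 10.4% of all tested genes.

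Of the resorption enzymes, Acp5 (chromosome 9, 22126727 to 22135746, GRCm38) was at 1813, 1629 and 2073 FPKM in WT mice 1 to 3 and at 1210, 1019 and 1291 in the Runx2+/- mice. All mutants were below all WT mice. The mutant mean of 1173 ± 139 was 63.8% of the WT mean of 1838 ± 223 (SD, n = 3), and the log2 fold change of -0.65 (SE 0.14) had an adjusted p of 0.0612 (limma). Within the Med23 set Acp5 was at 2663, 1482 and 1721 FPKM in control and 1345, 1625 and 1137 in mutant mice. Control mouse 1 stood well above the other 5 mice, which overlapped, and the log2 fold change of -0.48 (SE 0.23) had an adjusted p of 0.279.

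Ctsk (chromosome 3, 95499210 to 95509387), which encodes the collagen-cutting protease cathepsin K, was at 3556, 2720 and 3693 FPKM in WT and 2171, 1916 and 2312 in Runx2+/- mice. Again no mutant reached the lowest WT mouse, and the mutant mean was 64.2% of the WT mean (log2 fold change -0.63, SE 0.15, adjusted p = 0.0859, limma). For the Med23 set, the values were 4380, 2385 and 2880 FPKM in control and 2867, 2975 and 2471 in mutant mice. All mutants lay within the control range, with a log2 fold change of -0.17 (SE 0.22) and an adjusted p of 0.696.

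The fusion proteins are needed for precursors to merge into multinucleated cells. Dcstamp (chromosome 15, 39745930 to 39760938) was at 36.9, 29.6 and 34.0 FPKM in WT mice and at 17.8, 13.6 and 18.2 in Runx2+/- mice. It fell to 49.3% of the WT mean, by -0.98 on the log2 scale (SE 0.13, 95% interval -1.29 to -0.68, adjusted p = 0.0184, limma). In control mice of the Med23 set it was at 48.9, 25.4 and 35.9 FPKM and in their mutant littermates at 28.3, 30.4 and 24.6. There the groups overlapped and the log2 fold change was -0.35 (SE 0.22, adjusted p = 0.393).

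Ocstamp (chromosome 2, 165395450 to 165400394) was at 19.4, 17.5 and 17.98 FPKM in WT and 11.2, 10.6 and 15.2 in Runx2+/- mice, without overlap. Its log2 fold change of -0.55 (SE 0.13) had an adjusted p of 0.0906 by limma. Control mice had 29.7, 15.7 and 17.3 FPKM and Med23 MSC-/- mice 12.03, 19.6 and 12.3, which overlapped (log2 fold change -0.47, SE 0.27, adjusted p = 0.357).

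Among the receptors, Tnfrsf11a (chromosome 1, 105780673 to 105849444), which encodes RANK, was at 7.19, 7.80 and 5.13 FPKM in WT and 4.68, 2.97 and 3.89 in Runx2+/- mice. The groups did not overlap, though WT mouse 3 and Runx2+/- mouse 1 were close, and the log2 fold change was -0.67 (SE 0.18, adjusted p = 0.115, limma). In the Med23 set, control mice were at 7.65, 5.11 and 4.81 FPKM and mutants at 5.30, 4.34 and 3.73. Here too the log2 fold change was negative, at -0.32 (SE 0.18, adjusted p = 0.36), with overlap.

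Oscar (chromosome 7, 3609813 to 3616157), a collagen-binding co-stimulatory receptor, was at 25.6, 25.6 and 23.5 FPKM in WT and 15.7, 13.6 and 21.6 in Runx2+/- mice. No mutant reached a WT mouse, and Runx2+/- mouse 3 came nearest (log2 fold change -0.55, SE 0.15, adjusted p = 0.131, limma). In the Med23 set control mouse 1 had 54.6 FPKM, which was 2.98 times the mean of control mice 2 (17.5) and 3 (19.2), and mutant mice had 18.3, 24.2 and 18.1. The log2 fold change of -0.39 (SE 0.39, adjusted p = 0.612) thus rested on 1 mouse and was 0.12 without it.

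Calcr (chromosome 6, 3685678 to 3764713) encodes the receptor through which calcitonin stops resorption and is a mark of mature osteoclasts. It was at 2.95, 2.46 and 1.99 FPKM in WT mice and at 0.704, 0.447 and 0.959 in Runx2+/- mice. The mutant mean was 28.5% of the WT mean, the lowest share of the 10 genes, and the log2 fold change of -1.03 (SE 0.17, 95% interval -1.42 to -0.64) had an adjusted p of 0.032 (limma). Within the Med23 set control mice had 2.43, 1.41 and 1.82 FPKM and mutants 2.03, 0.897 and 0.593. Mutant mice 2 and 3 were below all controls and mutant mouse 1 was not (log2 fold change -0.45, SE 0.26, adjusted p = 0.363).

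Itgb3 (chromosome 11, 104608000 to 104670476), the integrin chain of the attachment ring, which platelets also use, was at 39.6, 40.6 and 38.5 FPKM in WT and 29.3, 18.6 and 22.0 in Runx2+/- mice. The groups lay apart, and the adjusted p of 0.05 for a log2 fold change of -0.76 (SE 0.15) was just above the threshold before rounding (limma). Itgb3 passed in 2 of 15 alternative settings, described below. For the Med23 set, the values were 51.5, 28.8 and 28.2 FPKM in control and 25.0, 31.1 and 12.8 in mutant mice. The lowest value came from mutant mouse 3 and the highest from control mouse 1 (log2 fold change -0.66, SE 0.35, adjusted p = 0.317). Of 5 tested megakaryocyte and platelet markers, 0 passed in either set (0 and 1 before adjustment in the Med23 and Runx2 sets). Of all tested genes 1.57% and 1.89% passed, and 21.3% and 15.4% did before adjustment. In the Runx2 set 3 of the 5 were negative (43.9% of all genes) and 2 positive. Mutants lay below all WT mice for 1 of the 5 (10.4% of all genes) and above for 1 (10.7%). The part of platelets in the Itgb3 values was not tested.

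Siglec15, a sialic acid receptor that signals through DAP12 in osteoclasts (chromosome 18), was at 11.0, 12.6 and 9.72 FPKM in WT and 7.34, 7.19 and 8.04 in Runx2+/- mice. Those groups did not overlap (log2 fold change -0.50, SE 0.11, adjusted p = 0.0669, limma). It was the only one of the 10 with a positive value in the Med23 set, where control mice had 11.7, 7.16 and 9.69 FPKM and mutants 10.7, 13.3 and 6.74. That log2 fold change of 0.07 (SE 0.25, adjusted p = 0.893) was -0.02 once all mice were brought to a common FPKM total.

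Nfatc1, the transcription factor (chromosome 18), had the smallest change of the 10 in the Runx2 set when its transcripts were summed. In Runx2+/- mice it was at 21.8, 17.1 and 22.5 FPKM, against 25.4, 26.7 and 21.4 in WT mice, and it was the only gene of the 10 with overlapping groups in this set (log2 fold change -0.25, SE 0.13, adjusted p = 0.412, limma). In the Med23 set it was at 34.1, 26.7 and 19.6 FPKM in control and 18.3, 21.3 and 15.7 in mutant mice. There its log2 fold change of -0.49 (SE 0.20) had the smallest p of the 10, 0.0407 before adjustment and 0.218 after it (limma). With only its highest transcript the log2 fold changes of Nfatc1 were -0.59 in the Runx2 set and -1.08 in the Med23 set (adjusted p = 0.265 and 0.213, limma), so their size depends on how its 6 transcripts are combined.

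**Figure D2:**
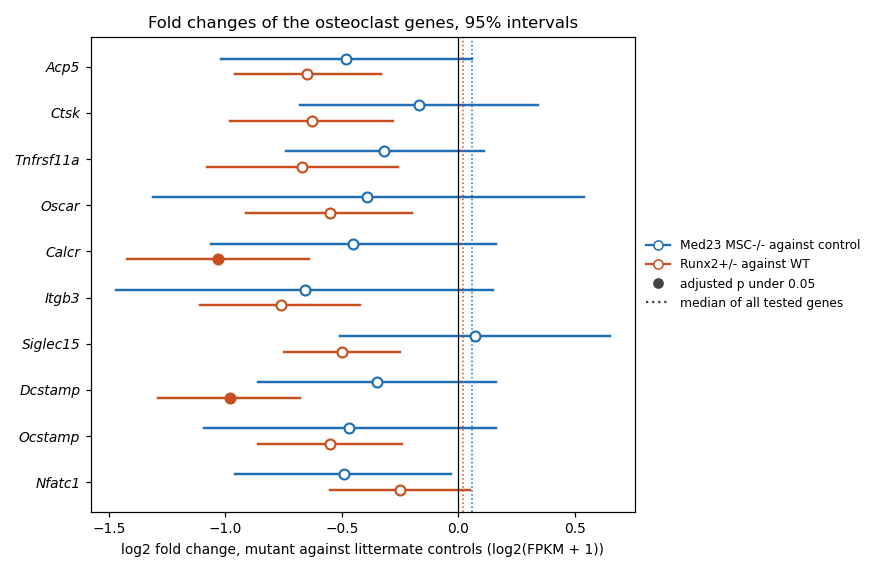
Log2 fold change of each osteoclast gene on the log2(FPKM + 1) scale (horizontal axis), mutant against littermate controls, with its 95% interval from the limma fit of 6 mice; filled points have an adjusted p under 0.05 and dotted lines mark the median of all tested genes. All 10 values of the Runx2 set are negative (43.9% of all tested genes are), from -1.03 to -0.25. Only Dcstamp and Calcr are filled, where 1.49% of all genes passed as lower. The Med23 set runs from -0.66 to 0.07 with wider intervals.

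Counted over the 10 genes, 2 passed at an adjusted p under 0.05 as lower in Runx2+/- mice, where 1.49% of all tested genes did (0.398% were higher). At an unadjusted p under 0.05, 9 of 10 were lower, against 8.32% of all genes. The mutant mice lay below all WT mice for 9 of 10 genes, against 10.4% of all genes, and the log2 fold change was negative for 10 of 10, against 43.9%. The median of -0.64 compared with 0.02 over all tested genes. Runx2+/- mouse 2 had the lowest value of the set for all 10 genes. Since the 10 come from 1 cell type and were read in the same 6 mice, they are not 10 independent observations. They were also chosen with earlier results of these data known, so the shares of all genes are a description.

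Counted the same way in the Med23 set, 0 of 10 genes passed at an adjusted p under 0.05 (limma), where 1.57% of all tested genes did (0.559% lower and 1.01% higher). Before adjustment 1 of 10, Nfatc1, was lower, against 5.63% of all genes. The log2 fold change was negative for 9 of 10, against 38.7% of all genes, and the median of -0.42 compared with 0.06 over all genes. For 0 of 10 genes did all mutants lie below all controls, against 7.68% of all genes. Control mouse 1 had the highest control value for all 10 genes, from 1.39 (Siglec15) to 2.98 times (Oscar) the mean of the other controls, and the highest of all 6 mice for 9. Without it the median was -0.17. Mutant mouse 3 had the lowest value of the set for 7 of 10 genes, and without it the median was -0.29.

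The 2 calls in the Runx2 set depended on single mice and settings. Without WT mouse 1, the WT mouse that expressed Xist, the count was 0, with Dcstamp at an adjusted p of 0.0679 and Calcr at 0.13. Calcr was called in 1 of the 6 fits without a mouse, that without Runx2+/- mouse 3. The count was also 0 without WT mouse 3, and 1 (Dcstamp) without WT mouse 2 or Runx2+/- mouse 2. It was 2 without Runx2+/- mouse 1 (Dcstamp and Itgb3) and 4 without Runx2+/- mouse 3 (Calcr, Dcstamp, Ocstamp and Oscar). The sizes moved less, with a median between -0.71 and -0.54 over the 6 fits that each left out a mouse. In the Med23 set, leaving out the control mice that expressed Xist leaves control mouse 1 alone as the control, and the median was then -0.83 with 0 genes called.

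When the change in the Med23 set was compared with that in the Runx2 set by an interaction contrast over all 12 mice, 0 of 10 genes passed after adjustment (limma), where 0.153% of all tested genes did (0.0919% lower and 0.0613% higher in the Med23 set). The difference was negative for 1 of 10, against 44.3% of all genes. Before adjustment 1 of 10 passed and 0 of 10 in the lower direction, against 15.3% and 4.17% of all genes. That gene was Dcstamp, whose log2 fold change was higher in the Med23 set by 0.63 (95% interval 0.03 to 1.24, adjusted p = 0.307, limma). For Ctsk the difference was 0.46 (95% interval -0.16 to 1.08) and for Acp5 0.16 (-0.47 to 0.79), and both intervals include 0. The value for Nfatc1 was -0.24 (-0.81 to 0.32).

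The 10 genes varied together between mice. Over the 12 mice, Pearson's r of log2(FPKM + 1) between 2 of them had a median of 0.76 over the 45 pairs and ran from 0.45 (Siglec15 with Nfatc1) to 0.94 (Ctsk with Dcstamp). After the mean of each group was taken away, the median was 0.66 and the range 0.31 (Calcr with Ocstamp) to 0.95 (Acp5 with Ctsk). Single mice stood apart in 3 groups. Control mouse 1 was highest of its group for 10 of 10 genes, and Med23 MSC-/- mouse 3 lowest of its group for 9. Runx2+/- mouse 2 was lowest of its group for 10. In WT mice 1 to 3 the highest value was split 4, 4 and 2. The part of single mice in r was not tested. All points share their libraries, and the values are a description. Acp5 was closest to the others, with a median r of 0.86.

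Of all other tested genes, those whose log2 values followed the mean of the 10 most closely over the 12 mice were Atp6v0d2 (r = 0.98), a subunit of the osteoclast proton pump, Atp6v1b2 (0.96), another pump subunit, Slc37a2 (0.96), a sugar phosphate transporter, C9orf72 (0.95), Nmb (0.95), Gpr137b (0.94), Ccr1 (0.94), a chemokine receptor, and Rufy4 (0.94). Their log2 fold changes were between -0.61 and -0.26 in the Med23 set and between -1.03 and -0.55 in the Runx2 set. This likeness takes in the differences between groups, so low values in Runx2+/- mice are part of how these genes were chosen. With group means taken away, the closest were Renbp and Cmtm4 (0.97), Glmp, Tm4sf19 and Dgki (0.96), and Rora, Smcr8 and Tpp1 (0.95). Their log2 fold changes were between -0.53 and 0.18 in the Med23 set and between -0.42 and 0.30 in the Runx2 set, and none passed (adjusted p from 0.121 to 0.898 in the Runx2 set, limma). With the group means left in, Rora was at r = -0.06.

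Genes of the osteoclast pathway outside the 10 were taken from 4 lists. The list for RANK and immunoreceptor signalling had 19 genes, all tested. In the Runx2 set 2 of 19 fell (1.49% of all tested genes did) and 18 of 19 were negative (43.9% of all genes), with a median of -0.38. The genes that fell were Spi1, which encodes PU.1, the factor of the myeloid lineage, from 53.6 ± 1.16 FPKM in WT to 34.0 ± 2.08 in Runx2+/- mice (log2 fold change -0.64, SE 0.08, adjusted p = 0.0165, limma), and Btk, a kinase below the immunoreceptors, from 6.53 ± 1.07 to 3.55 ± 0.498 (-0.72, SE 0.14, adjusted p = 0.048). Both calls were lost without WT mouse 1 and without Runx2+/- mouse 1, and of the 6 fits without a mouse that of Btk held only without WT mouse 2. Both were also lost with no filter, without moderation across genes and with the replicate number as a block. Within the Med23 set 0 of 19 passed (1.57% of all tested genes did). Before adjustment 7 were lower, against 5.63% of all genes. All mutants lay below all controls for 6 of 19, against 7.68% of all genes, and the median was -0.29. The largest values there were -0.68 for Fos (adjusted p = 0.218) and -0.61 for Plcg2 (0.098). With all 12 mice in 1 fit, Plcg2 and Spi1 were called lower in the Med23 set.

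The machinery for acid secretion, matrix degradation and attachment was followed in 13 genes. In Runx2+/- mice 6 of 13 fell (1.49% of all tested genes did), 12 of 13 lay below all WT mice (10.4% of all genes), 1 (Sh3pxd2a, a protein of the attachment ring, 0.37, adjusted p = 0.207, named after its value was seen) lay above, and the median was -0.48. The lowest was Car2, carbonic anhydrase 2, which supplies the protons and is also abundant in red blood cells. It was at 42.6, 32.8 and 37.6 FPKM in WT and at 15.5, 15.3 and 15.2 in Runx2+/- mice (log2 fold change -1.24, SE 0.10, adjusted p = 0.0054, limma). The others were Snx10 (-0.91), needed for vesicle traffic to the resorbing membrane, the pump subunits Atp6v0d2 (-0.85) and Tcirg1 (-0.58), the sodium-proton exchanger Slc9b2 (-0.84) and Ostm1 (-0.58), the partner of the chloride channel. Only Car2 still passed without WT mouse 1, and the count was 2 or 3 in each of the other 5 fits without a mouse. It was 1 with no filter and with all 12 mice in 1 fit, and 0 without moderation. For the Med23 set, 0 of 13 passed (1.57% of all tested genes did) and 2 were lower before adjustment (5.63% of all genes). All mutants lay below all controls for 1 of 13 (7.68% of all genes), and the median was -0.33. The largest values were -0.58 for Tcirg1 (adjusted p = 0.118, limma) and -0.43 for Atp6v0d2 (0.419). Tcirg1 was called lower there with all 12 mice in 1 fit.

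Of 5 inhibitors of osteoclast formation, none passed in the Med23 or Runx2 set (limma), where 1.57% and 1.89% of all tested genes did. Before adjustment 0 passed in the Med23 set and 1 in the Runx2 set, against 21.3% and 15.4% of all genes. The median of the 5 was -0.23 in the Med23 set. There Traf3, which restrains the NF-kB branch, was at -0.28 (adjusted p = 0.421, limma) and Inpp5d, which encodes the phosphatase SHIP1, at -0.27 (0.474). Across the Runx2 set the median was -0.18, and Irf8, a factor of the macrophage lineage that opposes NFATc1, was at -0.46 (adjusted p = 0.254) and Traf3 at 0.27 (0.562). For 0 of 5 did all mutants lie below or above all controls in either set. Of all genes 7.68% lay below and 19.6% above in the Med23 set, and 10.4% and 10.7% in the Runx2 set. The difference between the sets passed for 0 of 5 (0.153% of all genes). With only 5 genes, counts of 0 say little.

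The signals that osteoblasts and stroma send to osteoclasts were 4 genes, and in the Med23 set all 4 had mutants below all controls (7.68% of all tested genes did), with a median of -0.67. Il34, the other ligand of the CSF1 receptor, fell from 6.83 ± 0.709 to 4.04 ± 0.381 FPKM (log2 fold change -0.63, SE 0.11, adjusted p = 0.0446, limma), a call lost on leaving out any 1 of the 6 mice, with no filter, at the same FPKM sum, without moderation and with the highest transcript per gene. Csf1 was at 26.8 ± 4.77 in control and 15.9 ± 1.15 in mutant mice (-0.71, adjusted p = 0.0542), and was called with median-ratio factors, with all 12 mice in 1 fit and with the replicate block. For Tnfrsf11b, which encodes the RANKL decoy osteoprotegerin, the levels were 16.3 ± 2.76 and 8.64 ± 2.69 (-0.87, adjusted p = 0.099). Tnfsf11, which encodes RANKL, was at -0.56 (adjusted p = 0.159). In the Runx2 set 0 of 4 passed (1.89% of all genes did), 1 was lower before adjustment (8.32% of all genes), and the median was -0.18. The largest values there were those of Tnfsf11 (-0.76, adjusted p = 0.16, limma) and Tnfrsf11b (-0.22, adjusted p = 0.74). Tnfsf11 was called lower there without Runx2+/- mouse 3. The differences between the sets passed for 0 of 4 after adjustment (0.153% of all genes). Before adjustment 2 of 4 were lower in the Med23 set (4.17% of all genes).

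**Figure D3:**
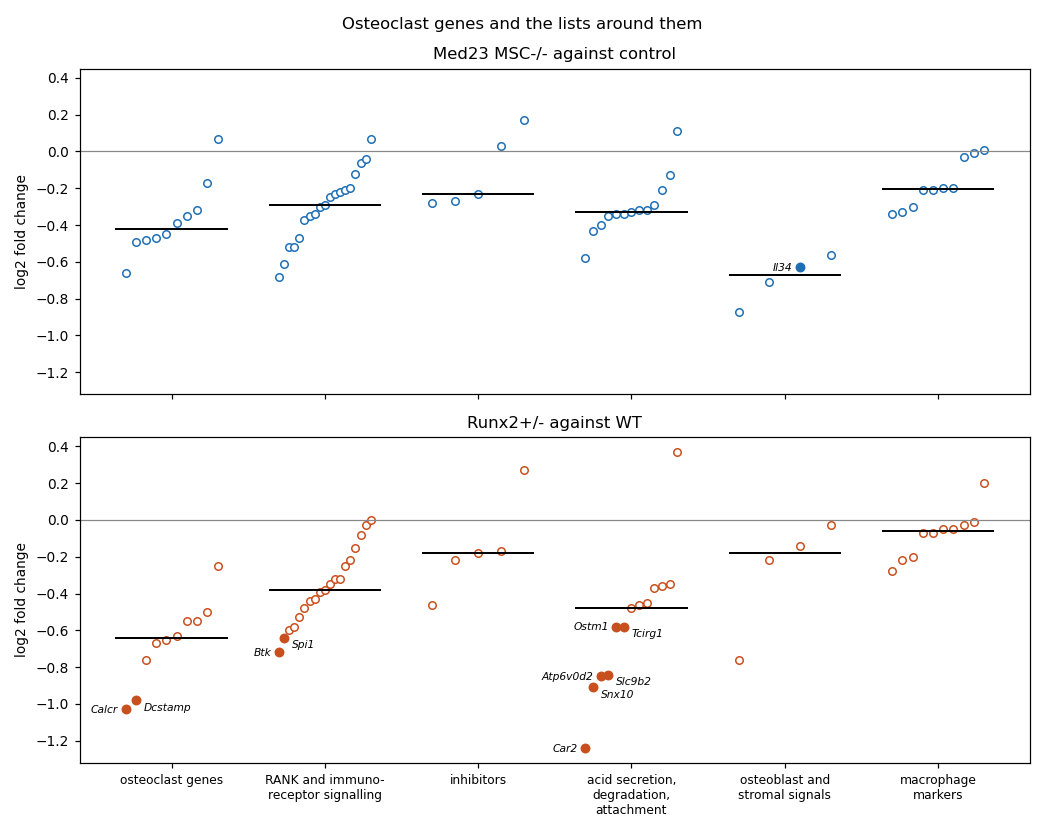
Log2 fold changes (vertical axes, log2(FPKM + 1) scale) of the 10 osteoclast genes, of 4 lists of pathway genes and of macrophage markers in the Med23 set (top) and the Runx2 set (bottom); each point is a gene, ordered by value, a black line is the list's median, and filled, named points have an adjusted p under 0.05. In the Runx2 set the named genes lie in the osteoclast, signalling and acid secretion lists, and in the Med23 set the only named gene is Il34.

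Markers of other cells were set beside these results. For macrophages, which share the precursor of osteoclasts, 10 of 11 listed markers were found. In the Runx2 set 0 of 10 passed after or before adjustment (limma), where 1.89% and 15.4% of all tested genes did. The summed level of the 10 was 598 to 665 FPKM in WT and 485 to 668 in Runx2+/- mice. In the Med23 set 0 of 10 passed after or before adjustment, where 1.57% and 21.3% of all tested genes did. Macrophage sums were 643 to 898 FPKM in control and 410 to 845 in mutant mice. The lowest of these sums was that of mutant mouse 3, which also had the lowest value of 7 of the 10 osteoclast genes. Control mouse 1, highest for the osteoclast genes, had the lowest macrophage sum of the controls. Red cell markers were at sums of 9065 to 11384 FPKM in WT and 2402 to 9741 in Runx2+/- mice, and neutrophil markers at 290 to 455 and 69.8 to 372. None of 5 tested red cell or 4 tested neutrophil markers passed there after adjustment, where 1.89% of all tested genes did. Before adjustment all of them were lower, against 8.32% of all genes. Hba-a1 and Hba-a2 made up much of the red cell sums, at means of 6464 and 3761 FPKM in WT mice. Red cell sums in the Med23 set were 8135 to 11393 FPKM in control and 4019 to 7229 in mutant mice. Of these markers 0 of 5 passed (1.57% of all tested genes did), and 3 were lower before adjustment (5.63% of all genes). Neutrophil sums there were 165 to 618 and 65.7 to 289 FPKM. Of 4 neutrophil markers 0 passed after adjustment and 0 before it, where 21.3% of all genes passed before it. Elane was at 0 in some mice, and 3 neutrophil markers were too low to be tested.

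Skeletal muscle markers moved most. Their sum was 2139 to 6387 FPKM in WT and 30.9 to 209 in Runx2+/- mice, and 9 of 10 fell (1.49% of all tested genes did). Within the Med23 set it was 26.3 to 1549 in control and 665 to 4654 in mutant mice. In that set 0 of 10 passed, where 1.57% of all tested genes did. Before adjustment 2 were higher, where 21.3% of all genes passed in either direction. All 10 muscle markers were positive there, with a median of 2.99, where 38.7% of all genes were negative. In the Runx2 set their median was -4.76. The difference between the sets passed for 10 of 10 before adjustment (15.3% of all genes) and for 0 after it. Osteoblast markers summed to 42562 to 44272 FPKM in control and 20651 to 27862 in Med23 MSC-/- mice. There 1 of 9 fell (Bglap, 0.559% of all tested genes did) and 7 were lower before adjustment (5.63% of all genes). The median was -0.53 and 9 of 9 were negative. In WT mice the sum was 34621 to 39455 FPKM and in Runx2+/- mice 24829 to 32089. There 0 of 9 passed and 2 were lower before adjustment (8.32% of all genes), 5 of 9 were negative and the median was -0.04. Spp1 made up much of these sums, at a mean of 17845 FPKM in WT and 10491 in Runx2+/- mice. Of 6 cartilage markers 1 fell in Med23 MSC-/- mice (Col2a1, 0.559% of all tested genes did), where 4 were lower before adjustment (5.63% of all genes). In Runx2+/- mice 0 cartilage markers passed (1.89% of all genes did). Before adjustment 1 was higher, where 15.4% of all genes passed in either direction. The part of these differences in tissue content in the osteoclast values was not tested.

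**Figure D4:**
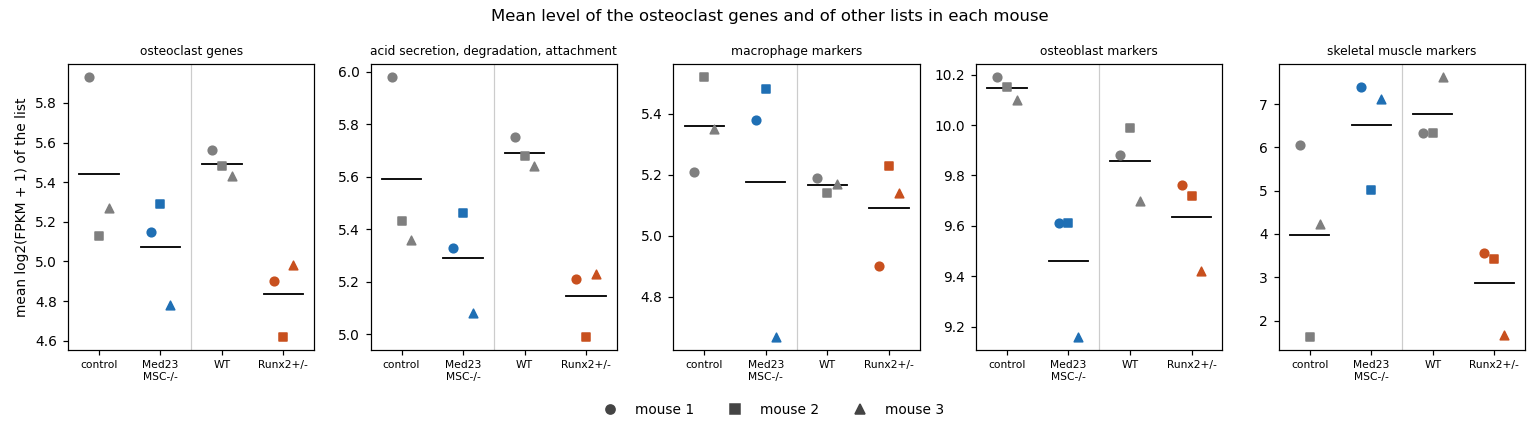
Mean log2(FPKM + 1) of the 10 osteoclast genes and of 4 other lists (vertical axes, each on its own scale that does not start at 0) in each of the 12 mice; lines are group means and symbols the mouse number. The osteoclast mean is 5.43 to 5.56 in WT and 4.62 to 4.98 in Runx2+/- mice, and in the control group mouse 1 (5.93) stands above mice 2 (5.13) and 3 (5.27), while macrophage markers overlap between the groups of each set.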

How the data were processed

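Groups and mouse numbers follow the labels. The authors deposited 1 file per mouse with 1 FPKM value for each of 30411 RefSeq transcripts. That they are FPKM is read from the values: not whole numbers, with totals of 891329 to 1068933 per mouse, and falling with transcript length where a gene has a single fragment. Bowtie 0.12.8 and mm10 are named in the submitters' processing notes, and the program that made the FPKM values is not given in the sources used here. Where a gene has several transcripts its fragments are divided among them, as for Nfatc1.

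Transcripts were joined to symbols by the RefSeq gene table (29831) or the GENCODE M21 table (184), 396 kept their identifier, and FPKM was summed per gene. Genes that reached 1 FPKM in 3 or more of the 12 mice were tested on log2(FPKM + 1) with limma 3.58.1 in R 4.3.3, using a trended prior, no covariates and two-sided p-values adjusted by Benjamini-Hochberg over all 13059 genes. Each set of 6 mice had its own fit, and the difference between sets was a contrast in 1 fit of 12 mice. With 3 mice per group, each p-value sets a change against the spread between mice of a group, moderated by that of all tested genes. Tables and figures were made with Python 3.11.15, pandas 2.3.3, numpy 2.4.6, scipy 1.17.1 and matplotlib 3.10.9. The fits were also run on simulated data with independent normal noise for each gene. That simulation has no outlying mouse and no correlation between genes. It therefore does not show how the fits treat a mouse such as control mouse 1.

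The members and the lists were chosen with earlier results of these data known. The genes named are the 10 members and, from the 4 pathway lists, those with an adjusted p under 0.05 and the 2 with the largest change per set, and the 8 closest genes by each of 2 measures of likeness, leaving out predicted genes and clones. Of the marker lists, counts, sums and some medians are given. From them Bglap, Col2a1, Elane, Hba-a1, Hba-a2, Spp1 and (of a pathway list) Sh3pxd2a were named after their values were seen. Alternatives were another pseudocount, no filter, 2 rescalings, other fits, the highest transcript per gene, the replicate number as a block and leaving out mice. The counts of the pathway lists and of groups that do not overlap were rerun under alternatives chosen after seeing the data. One gene of the list of inhibitors is not reported here.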

Additional observations from a re-analysis of the deposited data

Results flagged for a closer look

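The change of Car2, the carbonic anhydrase of the acid secretion list, differed between the sets. Its log2 fold change was higher in the Med23 set than in the Runx2 set by 1.35 (SE 0.22, 95% interval 0.88 to 1.82, adjusted p = 0.0422 by limma's interaction contrast). Car2 was at 39.3, 24.2 and 30.2 FPKM in control and 37.8, 31.0 and 31.3 in Med23 MSC-/- mice (log2 fold change 0.11, SE 0.17, adjusted p = 0.744), against 42.6, 32.8 and 37.6 in WT and 15.5, 15.3 and 15.2 in Runx2+/- mice. It was the only gene among the pathway and marker lists whose difference passed. Without control mouse 2, control mouse 3, Med23 MSC-/- mouse 1 or 3, WT mouse 1 or 3, or any single Runx2+/- mouse the adjusted p was between 0.0608 and 0.115, and without the 3 control libraries that express Xist the difference was 0.91 (adjusted p = 0.118). The call was also lost with no filter (0.0969), by median-ratio factors (0.0583), without moderation (0.178) and with the highest transcript per gene (0.0546), so that it held in 6 of 20 alternatives. Car2 is also a red cell gene, and red cell marker sums were 9065 to 11384 FPKM in WT, 2402 to 9741 in Runx2+/-, 8135 to 11393 in control and 4019 to 7229 in Med23 MSC-/- mice. Their part in the result was not tested.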

How the results depend on the processing

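The 10 genes kept the sign of their log2 fold change in the Runx2 set under all 15 alternatives. The called members of that set were 2 as reported. They were 0 with no filter, 0 without moderation across genes, 1 with all 12 mice in 1 fit and 1 with the highest transcript per gene. Values rescaled to the same sum gave 4 (Acp5, Calcr, Ctsk and Dcstamp), and median-ratio factors gave 3 (Calcr, Dcstamp and Itgb3). The count was 0 without the control library that expresses Xist, and 0 to 4 when mice were left out in turn. Genes whose mutants all lay below WT were 8 of 10 at the same sum (8.26% of all genes) and 9 by median-ratio factors (11.3%). In the Med23 set 0 members were called under every alternative, and the median ran from -0.58 to -0.17 without single mice and was -0.83 without the control libraries that express Xist.

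Whether the replicate numbers pair the mice cannot be decided from 3 mice per group. Deviations of same-numbered mice correlated at 0.18, 0.259 and 0.0527 in the Med23 set and at 0.00482, -0.0474 and -0.0836 in the Runx2 set. With the replicate block 1 member (Dcstamp) and 90 genes were called in the Runx2 set, and 273 genes in the Med23 set. In the Med23 set 4 members had an unadjusted p under 0.05 with the block and 1 without it (limma). The 6 acid secretion genes called in the Runx2 set were 4 with the block, at the same sum and with the highest transcript, and 3 by median-ratio factors.

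Over all genes, the 205 called in the Med23 set (73 lower, 132 higher) were 717 with all 12 mice in 1 fit, 57 with the highest transcript, 1 with no filter, 0 without moderation, 106 at the same sum (65 lower, 41 higher), 143 by median-ratio factors (86 lower, 57 higher), 0 without the control libraries that express Xist and 0 to 35 without single mice. The 247 called in the Runx2 set were 95 with all 12 mice, 111 with the highest transcript, 14 with no filter, 1 without moderation, 34 without the Xist-expressing control and 34 to 169 without single mice. The causes were not tested.

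Signs turned in the Med23 set for Ctsk (0.08) and Oscar (0.12) without control mouse 1, and for Siglec15 at the same sum (-0.02), without control mouse 2 (-0.10), without mutant mouse 2 (-0.12) and without the control libraries that express Xist (-0.22). Signs of the difference between the sets turned at the same sum for Itgb3 (-0.04) and Ocstamp (-0.05). Without control mouse 2 they turned for Acp5 (-0.01), Oscar (-0.12), Itgb3 (-0.03) and Ocstamp (-0.09), and without control mouse 3 for Oscar (-0.06), Itgb3 (-0.05) and Ocstamp (-0.02). Itgb3 and Ocstamp turned without Med23 MSC-/- mouse 2 (-0.16, -0.13) and without Runx2+/- mouse 2 (-0.04, -0.01), and Itgb3 was at -0.00 without Med23 MSC-/- mouse 1. Without the control libraries that express Xist the differences were -0.32 for Acp5, -0.09 for Ctsk, -0.06 for Tnfrsf11a, -0.87 for Oscar, -0.46 for Itgb3 and -0.50 for Ocstamp. None of these passed. With mice left out in turn, the Med23 values ran up to 0.32 for Siglec15 and down to -0.36 for Ctsk and -0.67 for Oscar, and the differences up to 0.41 for Acp5, 0.67 for Oscar, 0.46 for Itgb3 and 0.35 for Ocstamp. The precision of all values is limited by 3 mice a group.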
